A study of Homo sapiens with 5 samples.

Results

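The cadherin superfamily was followed across 5 transfected populations of MIAPaCa2 cells as 42 member genes, comprising 19 classical and related cadherins (CDH), 6 desmosomal cadherins, 9 protocadherins and 8 large cadherins of the FAT, Dachsous and CELSR families. The members were chosen by gene name, though with earlier results of these data known. The array annotation gave 39 of them 1 or more probe sets of their own, 85 in all, among 19775 genes and 54613 probe sets. CDH4, CDH13 and PCDH20 had no probe set that was assigned to them alone and were not analysed here. In summaries a gene is represented by whichever of its probe sets had the highest mean.

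MIAPaCa2 is an established line of poorly differentiated pancreatic ductal adenocarcinoma (PDAC). The study asked how the α2 subunit of the collagen-binding integrin α2β1, and its ectodomain and cytoplasmic tail, affect these cells, which lack α2, and it measured total RNA of each population on 1 Affymetrix array. All 5 populations were stable and drug-selected. MP2-α2Δ cells expressed α2 with a deletion of the cytoplasmic domain and were maintained on plates coated with 25 μg/mL collagenI. MP2-α9α2 cells expressed a chimera of the α9 ectodomain and the α2 tail and were maintained on 10 μg/mL tenascin FNIII, the fragment of tenascin that α9 binds. The MP2-α2/CI and MP2-α2/TC populations both expressed full-length α2 from a cytomegalovirus promoter and came from the same initial selection on collagenI, after which MP2-α2/CI cells stayed on 25 μg/mL collagenI and MP2-α2/TC cells on standard culture plastic. MP2-mock cells carried the empty vector. Their label names drug selection and no substrate, and they were taken to be on standard plastic. By the labels, the full-length α2 populations differed from each other in substrate, and MP2-α2/TC and MP2-mock cells differed in construct. The paper describes panning on a matrix protein for the integrin-transfected populations and none for MP2-mock cells. In every comparison with MP2-mock cells, construct and this panning therefore cannot be told apart. Construct and substrate changed together in MP2-α2/CI, MP2-α2Δ or MP2-α9α2 against MP2-mock cells and in MP2-α2Δ against MP2-α9α2 cells, as did the drug for MP2-α9α2 (G418 in place of zeocin), so these cannot be told apart there.

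Cadherins are transmembrane proteins whose extracellular repeats bind calcium and join neighbouring cells. Classical cadherins couple to actin through catenins at adherens junctions, desmosomal cadherins (desmogleins and desmocollins) couple to keratin filaments through plakoglobin, plakophilins and desmoplakin, and most protocadherins use other partners and adhere weakly. FAT, Dachsous and CELSR proteins are very large members with roles in planar polarity and growth control. In pancreatic carcinoma, as in other carcinomas, loss of CDH1 (E-cadherin) accompanies poor differentiation.

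The deposited values are normalized and were read as log2. The arrays fell into a pair of sets by their lowest value, 2.21 for MP2-α2Δ and MP2-α9α2 and 2.24 for MP2-α2/CI, MP2-α2/TC and MP2-mock, and were taken to have been normalized in these sets. The median of probe sets above background on all arrays was 7.72 and 7.69 in the first set and 6.88 to 6.89 in the second. Background was read from 107 probe sets of odorant receptors, genes silent in most tissues, whose 95th percentile gave each array a floor of 2.21 to 2.27 to which lower values were raised. A gene was called when it was at least 2-fold apart (1 on the log2 scale) between arrays of 1 set, or, between arrays of different sets, when it was 2-fold apart the same way in the values as deposited, after centring and after quantile normalization. With 1 array per population no difference has an error or a p-value. Among 17449 probe sets with a value above 5 on every array, 21.11% had the same value to within 1e-06 on all 3 arrays of MP2-α2/CI, MP2-α2/TC and MP2-mock, and 8.56% on both other arrays. How such identical values arose was not tested, and a difference of 0 is therefore not read as a measured equality.

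ITGA2, the gene of the transfected subunit, gave 7.28 on the MP2-α2Δ array for 1 of its 2 probe sets and 3.28 for the other, and both were at the array minimum in MP2-α9α2, MP2-α2/CI, MP2-α2/TC and MP2-mock cells. All 4 probe sets of ITGA9 were at the minimum on every array. The study describes the α2 construct as lacking the 3′ sequences that the array reads, so these probe sets do not check the labels. It also reports no α2 expression by array for any of its cells, unlike the 7.28 read here in MP2-α2Δ cells. The line was marked by KRT8 (14.18 to 14.66), KRT18 (14.75 to 15.22), KRT19 and VIM (15.48 to 15.85), whereas EPCAM was at background. Of the markers of other cell types, the 2 measured acinar genes were at background and none of 4 endothelial genes was more than 1 above the floor. The fibroblast list was above it for COL1A1 (7.18 to 8.11) and COL1A2 (11.97 to 13.08) but at the minimum for COL3A1, DCN and LUM, and the blood list for CD14 alone (2.91 to 3.38).

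The promoters of the 3 members with the largest differences between MP2-α2Δ and MP2-α9α2 cells are shown here with the letters searched in capitals. They are RefSeq sequences of assembly GRCh38.p14, each covering 250 bases before and 50 bases after a transcription start. PCDH7 lies at chr4:30720119-30720418 on the plus strand, DSG2 at chr18:31497927-31498226 on the plus strand and PCDH18 at chr4:137532445-137532744 on the minus strand.
PCDH7: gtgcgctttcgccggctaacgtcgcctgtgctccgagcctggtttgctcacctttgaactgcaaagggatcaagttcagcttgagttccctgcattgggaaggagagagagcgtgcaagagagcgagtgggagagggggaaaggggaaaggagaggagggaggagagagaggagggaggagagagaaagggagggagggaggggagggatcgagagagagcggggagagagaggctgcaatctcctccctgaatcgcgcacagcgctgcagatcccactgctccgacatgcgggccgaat
DSG2: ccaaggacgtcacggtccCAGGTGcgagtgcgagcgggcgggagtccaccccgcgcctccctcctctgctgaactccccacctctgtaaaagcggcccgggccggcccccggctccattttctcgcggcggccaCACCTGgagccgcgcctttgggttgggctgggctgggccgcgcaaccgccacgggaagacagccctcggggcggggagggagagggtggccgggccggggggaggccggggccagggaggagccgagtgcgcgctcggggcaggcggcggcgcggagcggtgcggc
PCDH18: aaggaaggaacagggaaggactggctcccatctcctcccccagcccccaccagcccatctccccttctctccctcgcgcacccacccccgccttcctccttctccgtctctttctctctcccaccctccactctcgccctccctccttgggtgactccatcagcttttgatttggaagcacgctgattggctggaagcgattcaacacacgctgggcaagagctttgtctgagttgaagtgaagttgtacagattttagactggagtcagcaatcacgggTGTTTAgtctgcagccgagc

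Capitals mark an E-box of the kind that ZEB and SNAIL repressors of CDH1 can bind (CACCTG or its reverse complement CAGGTG), or a forkhead core of the kind that FOXQ1 and its relatives can bind (TGTTTA or TAAACA). Both motifs were searched on both strands and they do not overlap. The DSG2 window held 2 E-boxes, at 232 and 116 bases before the start (-232 and -116), and 36 CpG dinucleotides. The PCDH18 window held 1 forkhead core at position 31 after the start and 10 CpG, and the PCDH7 window held neither motif and 16 CpG. Of all 35116 promoters in the table, 20.6% held the E-box and 12.3% the forkhead core. Among 34 promoters of 25 member genes, 5 held the E-box (14.7%, in CDH4, DSG1, DSG2, DSC2 and PCDH1) and 5 the forkhead core (14.7%, in CDH12, CDH19, DSC2, PCDH8 and PCDH18). A match describes the letters only and is no evidence that a factor binds there.

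Most of the family was at or near the floor in these cells. Of the 39 measured genes, 16 were at or below the floor on all 5 arrays, 10 came within 1 log2 unit of it, and 13 exceeded it by more than 1 on at least 1 array. The share at the floor was 41.03%, against 31.55% of all genes, and the share more than 1 above it was 33.33%, against 55.91%. By class, 4 of 17 measured CDH genes, 1 of 6 desmosomal cadherins, 4 of 8 protocadherins and 4 of 8 FAT, Dachsous and CELSR genes exceeded the floor by more than 1.

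**Figure D1:**
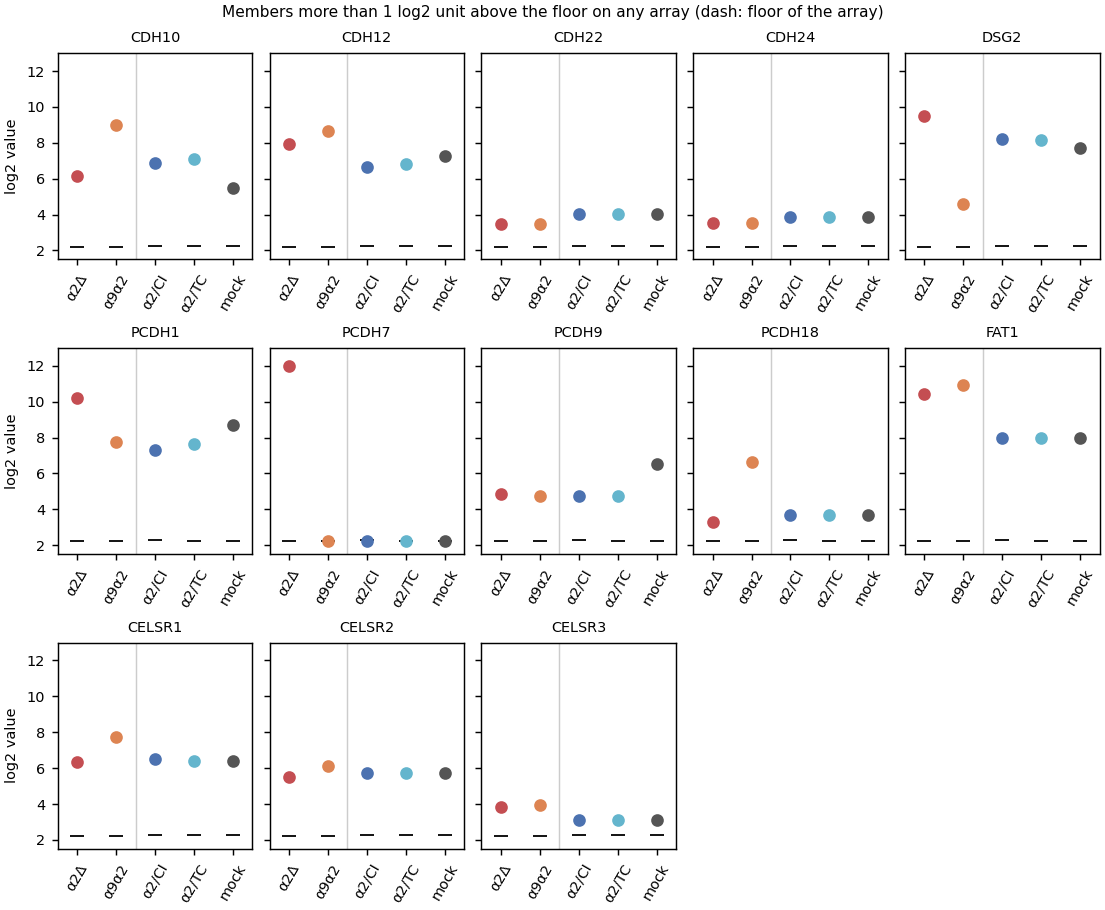
Log2 value of the 13 members that exceeded the floor by more than 1 on any array as y axis against the 5 arrays as x axis, with single points and no error because each population had 1 array; the black dash is the floor of that array and the grey line parts the arrays of different minimum. PCDH7 reached 12.00 on the MP2-α2Δ array alone, whereas FAT1 lay at 7.99 or above on every array.

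The cadherins that define epithelial, neural and endothelial junctions were at the floor or within 1 log2 unit of it. CDH1 had 2.21 in MP2-α2Δ cells, 2.21 in MP2-α9α2 cells, 2.24 in MP2-α2/CI cells, 2.26 in MP2-α2/TC cells and 2.24 in MP2-mock cells, so it passed the floor on the MP2-α2/TC array by less than 0.01. CDH2 (N-cadherin), whose gain often accompanies the loss of CDH1, had 2.21, 2.21, 2.31, 2.31 and 2.31 in the same order of populations. CDH3 (P-cadherin) stayed between 2.24 and 2.38 and CDH5 (the cadherin of endothelium) between 2.21 and 2.78. CDH8, CDH11 and CDH17 were also within 1 of the floor, and CDH6, CDH15, CDH16, CDH18, CDH19 and CDH20 did not pass it on any array. In no population did CDH1 or CDH2 exceed the floor by more than 0.06.

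The CDH genes with a signal were type II cadherins better known from brain. CDH10 was read by 1 probe set and had 6.12 in MP2-α2Δ cells, 9.0 in MP2-α9α2 cells, 6.90 in MP2-α2/CI cells, 7.11 in MP2-α2/TC cells and 5.51 in MP2-mock cells. Within the sets, MP2-α2Δ lay below MP2-α9α2, and both full-length α2 arrays lay above MP2-mock. CDH10 was 2.62-fold higher in MP2-α2/CI cells and 3.03-fold higher in MP2-α2/TC cells than in MP2-mock cells, and 7.36-fold lower in MP2-α2Δ cells than in the chimera MP2-α9α2. Its probe set is of the kind that may read more than 1 transcript, and without such probe sets CDH10 has no value. CDH12 had 7.92 in MP2-α2Δ cells, 8.67 in MP2-α9α2 cells, 6.68 in MP2-α2/CI cells, 6.79 in MP2-α2/TC cells and 7.29 in MP2-mock cells. It was present throughout and was called in no comparison, with differences within the sets of -0.75 to -0.12.

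CDH22 and CDH24, further type II cadherins, were low. The first CDH22 probe set had 3.46 on the MP2-α2Δ and MP2-α9α2 arrays and 4.04 on the other 3 arrays, whereas its second probe set had 4.29 on the first pair of arrays and 2.33 on the other 3. The probe sets of CDH22 thus differed in direction between the sets of arrays, and no direction is given for this gene. CDH24 had 3.55 on the first pair and 3.86 on the other 3 arrays. Both genes were identical within each set, so they carry no difference between populations of 1 set.

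Among the desmosomal cadherins only DSG2 (desmoglein 2), the desmoglein of simple epithelia, exceeded the floor by more than 1. DSG2 had 9.48 in MP2-α2Δ cells, 4.57 in MP2-α9α2 cells, 8.20 in MP2-α2/CI cells, 8.14 in MP2-α2/TC cells and 7.72 in MP2-mock cells. Its second probe set had 6.72 in MP2-α2Δ cells, 2.32 in MP2-α9α2 cells, 5.66 in MP2-α2/CI cells, 5.89 in MP2-α2/TC cells and 5.49 in MP2-mock cells. By both probe sets MP2-α9α2 was the lowest array. It exceeded the floor by more than 1 by the first probe set but not by the second, and the other 4 arrays did so by both. DSG2 was 30.1-fold higher by the first probe set in MP2-α2Δ cells, relative to MP2-α9α2 cells. By the second it was at least 21.2-fold higher, since the MP2-α9α2 value lay close to the floor. The partner desmocollin DSC2 did not exceed 2.24 on any array, and DSG1, DSG3, DSC1 and DSC3, which belong mainly to stratified epithelia, were at the floor throughout.

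PCDH7, a protocadherin found in brain and in several carcinomas, was read by 5 probe sets. The highest had 12.00 in MP2-α2Δ cells, 2.21 in MP2-α9α2 cells and 2.24 in MP2-α2/CI, MP2-α2/TC and MP2-mock cells. On the MP2-α2Δ array 3 further probe sets had 7.72, 7.35 and 3.98 and the last was at the floor, as were all 5 in MP2-α2/CI, MP2-α2/TC and MP2-mock cells, and in MP2-α9α2 cells none exceeded 2.28. PCDH7 thus exceeded the floor by more than 1 in MP2-α2Δ cells alone. Relative to MP2-α9α2 cells, the highest probe set was at least 886-fold and the one at 3.98 at least 3.40-fold higher, since both were at the floor there. For the other 2, whose MP2-α9α2 values passed the floor by less than 0.1, the differences were at least 45.3-fold and at least 33.6-fold. ITGA2 was likewise above background in MP2-α2Δ cells alone, at 7.28, and whether both signals have a common source was not tested.

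**Figure D2:**
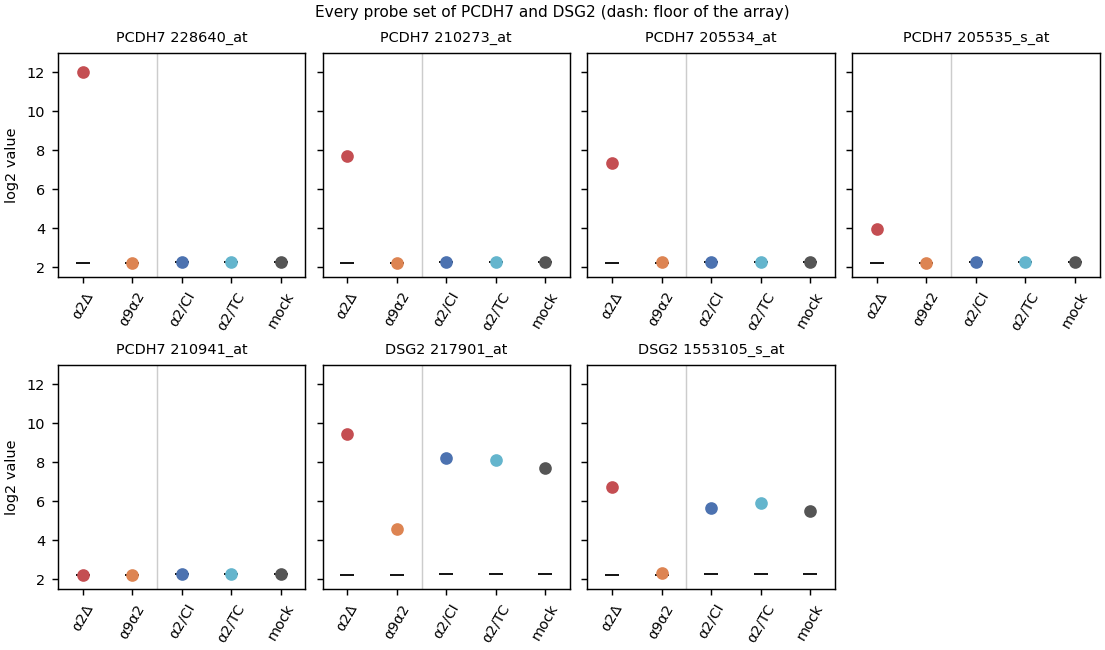
Log2 value of each of the 5 probe sets of PCDH7 and the 2 of DSG2 as y axis against the 5 arrays as x axis, with single points and no error; the black dash is the floor of that array, and where a point covers it the value is at or near the floor. For PCDH7, 4 probe sets stood above the floor in MP2-α2Δ cells, and both DSG2 probe sets were lowest in MP2-α9α2 cells.

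PCDH1, a protocadherin of airway and other epithelia, had 10.21 in MP2-α2Δ cells, 7.74 in MP2-α9α2 cells, 7.33 in MP2-α2/CI cells, 7.63 in MP2-α2/TC cells and 8.72 in MP2-mock cells. Both full-length α2 arrays were below MP2-mock, by 2.62-fold in MP2-α2/CI cells and 2.13-fold in MP2-α2/TC cells, and MP2-α2Δ cells were 5.52-fold above MP2-α9α2 cells. The second PCDH1 probe set was within 1 of the floor, at 2.81 in MP2-α2Δ cells, 2.54 in MP2-α9α2 cells, 2.51 in both full-length α2 populations and 3.11 in MP2-mock cells. With the median over both probe sets, neither PCDH1 difference of the full-length α2 arrays from MP2-mock reached 2-fold and MP2-α2Δ over MP2-α2/CI was no longer called.

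PCDH9, a protocadherin mostly of neurons, had 4.86 in MP2-α2Δ cells, 4.73 in MP2-α9α2 and both full-length α2 populations and 6.52 in MP2-mock cells. It was the one member with a higher value in MP2-mock cells than in each of the other 4 populations under all 3 scalings and by 2-fold or more. Against MP2-mock it was 3.45-fold lower in MP2-α2/CI cells and 3.46-fold lower in MP2-α2/TC cells. This rested on 1 of 4 probe sets, of a kind that may read more than 1 transcript, and the other 3 did not exceed 2.35 on any array. With the median over its probe sets, or without probe sets of this kind, no PCDH9 difference was called.

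PCDH18, a protocadherin of mesenchymal tissues, had 3.29 in MP2-α2Δ cells, 6.65 in MP2-α9α2 cells, 3.68 in both full-length α2 populations and 3.67 in MP2-mock cells. MP2-α9α2 stood apart as the highest array, and MP2-α2Δ cells were 10.2-fold lower. Its second probe set passed the floor in MP2-α9α2 cells alone, at 2.44. PCDH12 stayed between 2.26 and 2.41, and PCDH8, PCDH10 and PCDH17 were at the floor throughout.

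FAT1, a giant cadherin that binds actin regulators and restrains growth signals, was above the floor on every array. It had 10.41 in MP2-α2Δ cells, 10.93 in MP2-α9α2 cells and 7.99 in MP2-α2/CI, MP2-α2/TC and MP2-mock cells, so the second set gave 1 identical value. CELSR1, a planar polarity receptor, had 6.37 in MP2-α2Δ cells, 7.74 in MP2-α9α2 cells, 6.52 in MP2-α2/CI cells and 6.41 in MP2-α2/TC and MP2-mock cells. MP2-α2Δ cells were 2.58-fold lower by this probe set, relative to MP2-α9α2 cells, while its other 2 probe sets were at the floor. With the median over its probe sets CELSR1 was not called.

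The related CELSR2 had 5.52 in MP2-α2Δ cells, 6.12 in MP2-α9α2 cells and 5.74 on the other 3 arrays, and by its second probe set 4.80, 5.06 and 3.82 to 3.83. CELSR3 had 3.86 in MP2-α2Δ cells, 3.92 in MP2-α9α2 cells and 3.13 on the other 3 arrays. Neither was called in any comparison. FAT4, a receptor of the Dachsous pathway, stayed between 2.25 and 2.34, and FAT2, FAT3 and DCHS1 were at the floor on every array.

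Taking each comparison in turn, full-length α2 on collagenI was first set against the empty vector on plastic, so construct and substrate changed together. Of 17 members above the floor on either array, CDH10 was higher in MP2-α2/CI cells (1.39 on the log2 scale) and PCDH1 and PCDH9 were lower (-1.39 and -1.79). Among all 12608 genes tested in this way 0.262% were called higher and 0.389% lower. The uncalled members lay between -0.62 (CDH12) and 0.48 (DSG2), and the medians of the members and of all genes were both 0.

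In the comparison of MP2-α2/TC with MP2-mock cells the same 3 members were called, of 19 above the floor. CDH10 was higher by 1.60, and PCDH1 and PCDH9 were lower, at -1.09 and -1.79. Background shares were 0.292% of 12682 genes called higher and 0.378% called lower. Both comparisons share the MP2-mock array, so they are not separate measurements of that difference.

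Comparing MP2-α2/CI with MP2-α2/TC cells addresses the substrate for the same construct. No member of 19 was called, the differences ran from -0.30 (PCDH1) to 0.19 (CDH5), and 10 were exactly 0. Few genes were called at all, 0.0395% of 12647 higher and 0.15% lower.

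**Figure D3:**
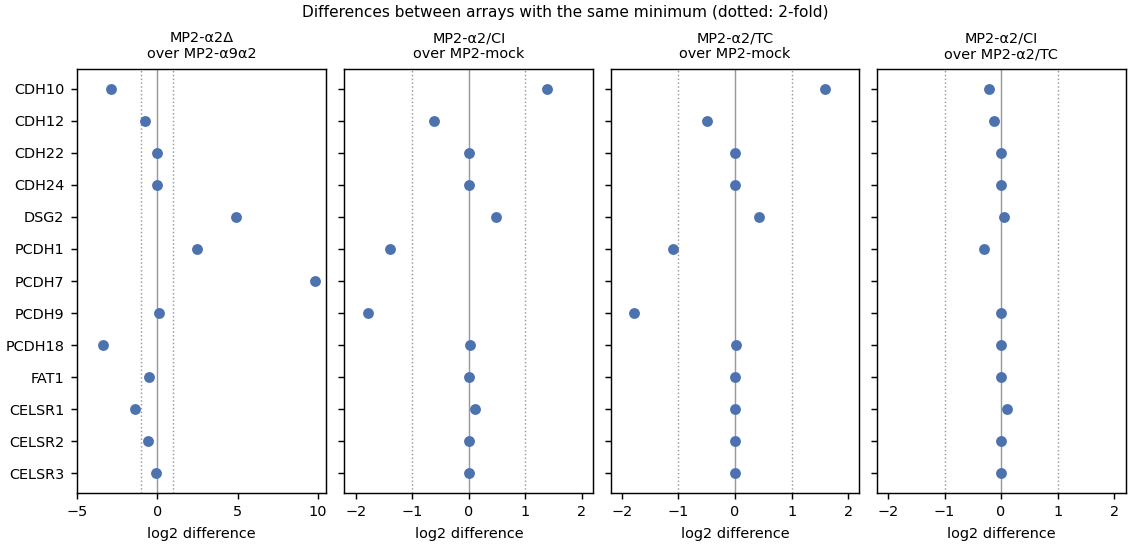
Log2 difference (x axis) of the 13 members (y axis) in the 4 comparisons between arrays with the same minimum, 1 point per gene with no error; the dotted lines mark 2-fold, the first panel has a wider axis, and no point is drawn where both arrays were at the floor. CDH10 lay at 1.39 and 1.60 and PCDH9 at -1.79 in both comparisons with MP2-mock, and the PCDH7 point at 9.79 is a lower bound.

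The comparison of MP2-α2Δ with MP2-α9α2 cells sets the α2 ectodomain without its tail against the α2 tail under another ectodomain. It gave 6 calls among 19 members above the floor. DSG2 (4.91), PCDH1 (2.46) and PCDH7 (at least 9.79) were higher in MP2-α2Δ cells, and CDH10 (-2.88), PCDH18 (-3.36) and CELSR1 (-1.37) were lower. Of 12924 genes, 10.1% were called higher and 4.97% lower, so calls were common here outside the family as well. The largest uncalled difference was that of CDH12 (-0.75), 7 members differed by exactly 0, and the median was 0 over the members and over all genes.

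Between the sets of arrays the balance of higher and lower genes depended on the scaling. For MP2-α2Δ over MP2-mock the share of higher genes among those at least 2-fold apart was 81.4% in the values as deposited, 32.8% after centring and 46.1% after quantile normalization. For MP2-α9α2 over MP2-mock it was 74.2%, 36.5% and 46.6%, and for MP2-α2Δ over MP2-α2/CI 81.8%, 32.6% and 46.0%. The median difference of probe sets above background on all arrays was 0.53, 0.54 and 0.53 in the deposited values of these 3 comparisons. Only members that were called under all 3 scalings are given a direction. The scalings act on whole arrays and cannot remove an offset of single probe sets between the sets. Population and set of arrays changed together in these comparisons, FAT1 included, and cannot be told apart.

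Against MP2-mock, MP2-α2Δ cells were higher for PCDH7 (9.75 as deposited, 8.90 centred and 9.43 quantile normalized, each against the floor) and FAT1 (2.42, 1.58 and 1.72), and lower for PCDH9 (-1.66, -2.50 and -2.45). These were 3 of 21 members, beside 11.3% of 13421 genes called higher and 6.91% called lower. DSG2 was at 1.76, 0.92 and 1.01 and PCDH1 at 1.49, 0.65 and 0.82, so neither passed under all scalings.

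MP2-α9α2 cells were higher than MP2-mock cells for CDH10 (3.49, 2.69 and 2.69), PCDH18 (2.98, 2.17 and 2.26) and FAT1 (2.94, 2.13 and 2.25). They were lower for DSG2 (-3.15, -3.96 and -3.81) and PCDH9 (-1.79, -2.59 and -2.50). This made 5 of 19 members, beside 14.7% of 13407 genes called higher and 11% called lower. The second DSG2 probe set was also called lower, at -3.17, -3.98 and -3.50. With the median over the PCDH18 probe sets its call was lost. PCDH1, at -0.98, -1.78 and -1.74, missed the 2-fold limit in the deposited values.

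On collagenI, MP2-α2Δ cells can be set against MP2-α2/CI cells, which carry the α2 tail but came from another transfection and lie in the other set of arrays. PCDH1 (2.88, 2.05 and 2.18), PCDH7 (9.73, 8.90 and 9.41, each against the floor) and FAT1 (2.42, 1.59 and 1.73) were higher in MP2-α2Δ cells and no member of 21 was called lower. Of 13276 genes, 10.8% were called higher and 6.65% lower. In the deposited values, which the scaling shifts as given above, the median over members was -0.04 for MP2-α2Δ over MP2-mock, -0.05 for MP2-α9α2 over MP2-mock and -0.05 for MP2-α2Δ over MP2-α2/CI, against 0.37, 0.33 and 0.40 for all genes. Many members lay near the floor, so nothing is read from this gap. These comparisons share arrays, and FAT1 rests on 1 value that is identical on the 3 arrays of the second set.

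**Figure D4:**
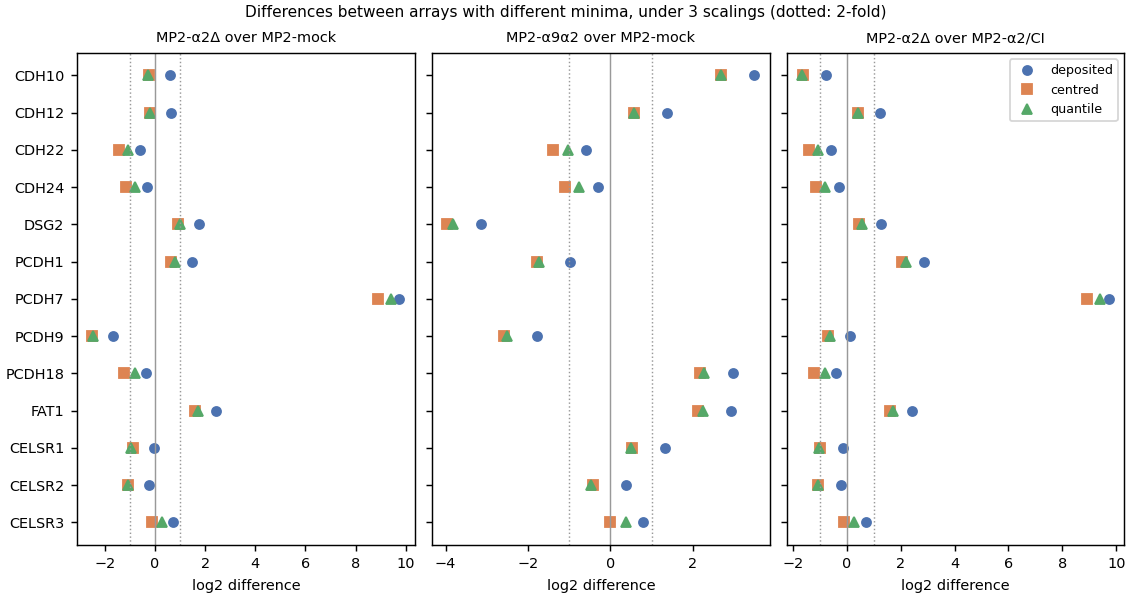
Log2 difference (x axis) of the 13 members (y axis) in the 3 comparisons between arrays with different minima, for the values as deposited (circles), after centring (squares) and after quantile normalization (triangles), with no error; the dotted lines mark 2-fold. FAT1 lay beyond 2-fold under every scaling in all 3 panels, whereas DSG2 in MP2-α2Δ over MP2-mock lay at 1.76, 0.92 and 1.01.

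The cytoplasmic partners of cadherins were mostly above the floor although CDH1 was at or near it. Of 22 measured catenins and adherens junction partners, 17 exceeded the floor by more than 1. CTNNB1 (β-catenin) had 12.33 in MP2-α2Δ cells, 12.21 in MP2-α9α2 cells, 12.31 in MP2-α2/CI cells, 12.23 in MP2-α2/TC cells and 12.13 in MP2-mock cells, and was called in no comparison. CTNNA1 (α-catenin) lay between 12.69 and 14.36 and JUP (plakoglobin) between 6.21 and 8.14. JUP was called higher in MP2-α9α2 than in MP2-mock cells (1.92 as deposited), beside 14.7% of all genes. Of 18 genes of this list above the floor, 5 were called higher there and 0 lower.

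Within the sets, 18 genes of this list were above the floor on either array. In MP2-α2/TC over MP2-mock cells 2 were called higher (0.292% of all genes), in MP2-α2/CI over MP2-mock cells 1 (0.262% of all genes), and in MP2-α2Δ over MP2-α9α2 cells 2 were called lower (4.97% of all genes). PTPRK, a receptor phosphatase that acts on junction proteins, had 4.71 in MP2-α2/CI and 5.28 in MP2-α2/TC cells, against 3.59 in MP2-mock cells. EPS8, an actin regulator, had 9.42 in MP2-α2/TC cells, against 8.38 in MP2-mock cells, and 8.80 in MP2-α2/CI cells, which was not called. The phosphatase PTPRF (12.08 in MP2-α2Δ cells, against 13.33 in MP2-α9α2 cells) and the LIM protein AJUBA (9.31 in MP2-α2Δ cells, against 10.36 in MP2-α9α2 cells) were lower in MP2-α2Δ cells.

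Of 15 measured desmosomal plaque genes, 10 were more than 1 above the floor. DSP (desmoplakin), which anchors desmosomal cadherins to keratin, had 10.83 in MP2-α2Δ cells, 9.70 in MP2-α9α2 cells and 9.55 on the other 3 arrays, and was the one plaque gene called within a set, among 11 above the floor in a comparison where 10.1% of all genes were called higher. PKP2 lay between 6.19 and 7.86, PKP3 between 9.44 and 10.66 and PERP between 12.59 and 13.76, without a call. In MP2-α9α2 cells, where DSG2 was lowest, DSP (9.70), JUP (8.14), PKP2 (7.48) and PKP3 (10.66) were thus well above the floor.

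Among 25 measured regulators of CDH1 transcription, 7 exceeded the floor by more than 1. ZEB1, a repressor of CDH1, had 10.22 in MP2-α2Δ cells, 11.09 in MP2-α9α2 cells, 10.13 in both full-length α2 populations and 10.12 in MP2-mock cells, without a call, while SNAI1, SNAI2, ZEB2, TWIST1 and TWIST2 were at or within 1 of the floor. FOXQ1 was the one regulator called within the sets, with 3.62 in MP2-α2Δ cells, 6.43 in MP2-α9α2 cells, 7.65 in MP2-α2/CI cells, 5.43 in MP2-α2/TC cells and 8.80 in MP2-mock cells. It was lower in MP2-α2Δ than MP2-α9α2 cells (1 of 13 regulators above the floor). FOXQ1 was also lower than MP2-mock in both full-length α2 populations (1 of 9 on collagenI and 1 of 10 on plastic). Between those populations it was called as well, with MP2-α2/CI above MP2-α2/TC by 2.22 on the log2 scale (1 of 10 regulators). There 0.0395% of all genes were called higher, and the shares for the other comparisons are given above.

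**Figure D5:**
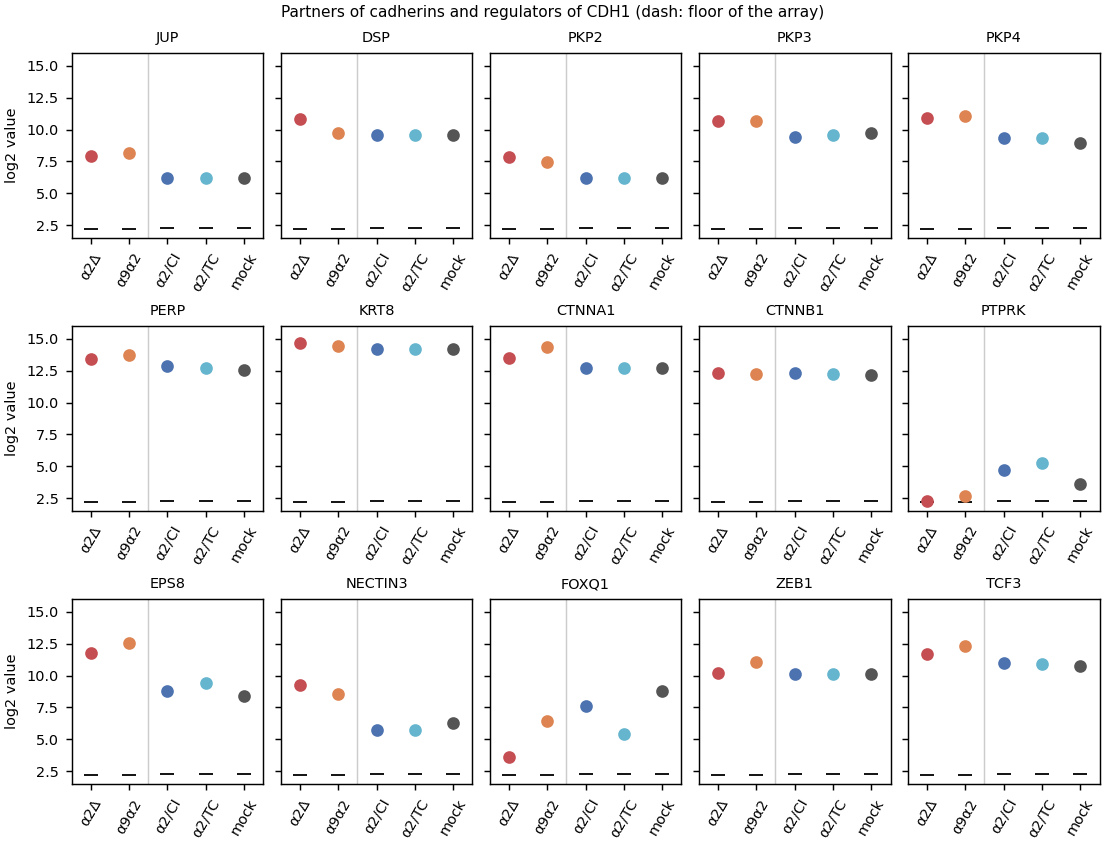
Log2 value, as y axis, of 15 genes of the partner and regulator lists, chosen after their values were seen, against the 5 arrays as x axis, with single points and no error; the black dash is the floor. CTNNB1 lay between 12.13 and 12.33 on all arrays, and FOXQ1 was lowest in MP2-α2Δ cells at 3.62.

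Of 18 measured proteases and γ-secretase parts that can cleave cadherins, 12 exceeded the floor by more than 1. PSENEN, a γ-secretase subunit, had 8.13 in MP2-α2Δ cells, 6.78 in MP2-α9α2 cells and 9.45 on the other 3 arrays and was the one called within a set, of 14 above the floor beside 10.1% of all genes. ADAM10, the main sheddase of CDH1, lay between 11.91 and 14.47. It was called higher in MP2-α9α2 than in MP2-mock cells (2.56 as deposited), beside 14.7% of all genes. In that comparison 3 of 14 genes of this list above the floor were called higher and 1 lower. Of 17 further superfamily genes outside the 42, 5 were more than 1 above the floor, and RET, a receptor kinase with cadherin-like repeats, was lower in MP2-α2Δ cells (3.23) than in MP2-α9α2 cells (4.39), against 5.35 on the other 3 arrays. It was 1 of 6 genes of that list above the floor in this comparison, beside 4.97% of all genes called lower.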

How the data were processed

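Total RNA of 5 MIAPaCa2 populations was hybridised to 1 Affymetrix array each. Each array has 1 deposited value for each probe set, normalized by the authors and taken here as log2 from its range. The log base, the software versions and which arrays were normalized together are not given in the sources used here, and GCRMA and MAS5 appear in the submitters' processing notes without a role. The 54675 probe sets less 62 control probe sets were used. The platform annotation gave 1 symbol for 41091 of them, several for 1801 and none for 11721, and 41037 symbols were brought up to date through RefSeq GRCh38.p14 by gene identifier. Genes were named from single-symbol probe sets only. Values were raised to the floor of their array, differences were taken with the group named first on top, and no difference was formed where both arrays were at the floor. A difference against the floor is a bound. All genes were compared in the same way, and the procedure was tested on simulated data.

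Values on all arrays are given for members above the floor that were at least 2-fold apart in any of 7 comparisons, for all probe sets of PCDH7 and DSG2, and for the 10 members of highest mean. From each of 5 lists the genes called within a set were named, at most 4 a list. CTNNB1, CTNNA1, JUP, the plakophilins, PERP, ZEB1, ADAM10 and other genes not called within a set, and the low members CDH22, CDH24 and CELSR3, were added after their values were seen. Members and lists were chosen with earlier results of these data known. The number of arrays limits the precision, which for a single value rests on how far it lies over the floor. The alternatives were other floors, folds and scalings, the median over probe sets, the probe set of largest range, and leaving out probe sets that may read several transcripts. Python 3.11.15, pandas 2.3.3 and numpy 2.4.6 were used.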

Additional observations from a re-analysis of the deposited data

How the results depend on the processing

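The 23 differences of called members were recomputed under the alternatives, 179 times in all, with comparisons between the sets in the deposited values except where another scaling was the alternative. Of these, 169 kept their direction and stayed at least 2-fold, 10 fell under 2-fold and 0 reversed. Not all of them could fail, because calls between the sets already had to hold after centring and after quantile normalization. CDH10 and FAT1 have 1 probe set each, so the median and the largest range returned the same value. The 10 that fell were those of PCDH1 in both full-length α2 populations over MP2-mock with the median over probe sets and those of PCDH9 with that median or without probe sets that may read several transcripts. The median also ended the calls of CELSR1 in MP2-α2Δ over MP2-α9α2 (no value), PCDH18 in MP2-α9α2 over MP2-mock and PCDH1 in MP2-α2Δ over MP2-α2/CI, which no longer held under all 3 scalings. CDH10 has no value without such probe sets. With the median over probe sets, or without such probe sets, 1 member in place of 3 was called for MP2-α2/TC over MP2-mock and also for MP2-α2/CI over MP2-mock, and 3 in place of 5 for MP2-α9α2 over MP2-mock. At 3-fold, 1 was called for MP2-α2/CI over MP2-mock. For MP2-α2Δ over MP2-mock the 3 calls became 5 at 1.5-fold, 5 in the deposited values alone, 8 after centring and 6 after quantile normalization. For MP2-α9α2 over MP2-mock centring alone gave 9. For MP2-α2Δ over MP2-α2/CI the 3 calls became 5 as deposited, 9 centred and 7 quantile normalized. One scaling alone asks less of a call than 3 together. For MP2-α2Δ over MP2-α9α2 and MP2-α2/CI over MP2-α2/TC the counts stayed within 1.5 times the reported ones. No paired analysis was possible because each population had 1 array, and no array could be left out. Members near the floor have no measurable order.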
